A study of Rattus norvegicus with 12 samples.

Results

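The arrays compared here measured the RNA of testes from E16 (embryonic day 16) male rat embryos of the F1 generation, which were in the womb while their mothers were dosed. They were chosen by their titles as the 4 arrays of F1 out of 12 in the series: 2 from the F1 control group and 2 from the F1 vinclozolin group. Per the labels' protocols, the mothers of the vinclozolin group were injected intraperitoneally with 100 mg/kg/day vinclozolin on days 8 to 14 of pregnancy, and those of the control group with the vehicle, sesame oil and DMSO, on the same days. Each RNA was a pool of about 10 testes of 1 treatment. The labels give no strain, and nothing in them ties the 2 pools of a group to different litters, so the p-values measure the spread between pools, which may be technical. The other 8 arrays, 2 of control and 2 of vinclozolin in each of F2 and F3, were made from embryos at the same day that descended from dosed founders by mating F1 animals and then F2 animals. They entered the estimate of the spread and are compared only where the F1 difference was tested against theirs. Their protocols give all mated animals, those of the vinclozolin groups too, as coming from control lines that differed, and groups were taken from the titles.

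Vinclozolin is a fungicide whose metabolites bind the androgen receptor and block it. In the fetal testis at this stage, Sertoli cells enclose the germ cells in cords and secrete anti-Mullerian hormone, and Leydig cells between the cords take up and make cholesterol and convert it to testosterone, which acts on the ducts and on the testis itself. Peritubular myoid cells, vessels, macrophages, stromal progenitors and circulating red cells also add their RNA to a whole-testis pool.

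Values were signal intensity per probe set (a set of oligonucleotides for 1 transcript region), with 21729 probe sets bright enough to be tested, and log2 fold changes are differences of mean log2(signal + 16), vinclozolin minus control, with their standard error (SE) from 2 arrays a group. The genes of testis cells were detected in both groups. Amh, the Sertoli hormone, read 3081 and 3075 on control arrays and 2743 and 2664 on vinclozolin arrays. Of the Leydig cell genes, Insl3 read 1076 and Cyp17a1 3889 on the first control array. The Y-linked gene Eif2s3y read 469.7 to 672 over the 4 arrays, while Xist, of the inactive X chromosome, did not exceed 17.1. Sox9, Dazl, Ddx4 and the androgen receptor gene were not analysed here.

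The arrays of the 2 groups differed in a measure of RNA quality. On these arrays control probe sets lie at the 5′ end, the middle and the 3′ end of a few transcripts, and labelling starts from the 3′ end, so a low ratio of 5′ to 3′ signal goes with shorter RNA. The beta-actin ratio was 0.461 and 0.457 on control arrays and 0.192 and 0.149 on vinclozolin arrays. For Gapdh it was 0.978 and 1.02 on control arrays against 0.718 and 0.651. For hexokinase it was 0.294 and 0.391 against 0.224 and 0.0349. All 3 ratios were lower on both vinclozolin arrays, and lowest on vinclozolin replicate 2. That array also had the highest 5S ribosomal RNA signal of the 4, 584, against 254 to 308 on the others. Replicates differed by a pooled SD of 0.149 (log2) between the control arrays and 0.244 between the vinclozolin arrays.

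Across all tested probe sets, 5026 (23.1%) were called at an adjusted p under 0.05, of which 2045 (9.41%) were higher and 2981 (13.7%) lower with vinclozolin. The large changes were mostly decreases: 693 called probe sets were lower by over 2-fold and 39 were higher by over 2-fold. In 12680 probe sets (58.4%) the 2 groups did not overlap, all of the called ones among them, so absence of overlap is common here. The direction went with brightness. With probe sets split into 4 classes of equal size by brightness, 20.9% of the brightest class were called higher and 13.7% lower, and of the dimmest class 1.55% were called higher and 8.60% lower. Leaving out vinclozolin replicate 2 left 3706 calls, leaving out a control array left 2749 or 2514, and leaving out vinclozolin replicate 1 gave 7183. Fitted on the 4 F1 arrays alone, 2294 were called, 608 higher and 1686 lower. With arrays centred on their medians, which moved the median log2 fold change of all probe sets from −0.01 to 0.10, 3678 were called higher and 2199 lower, so the majority direction depends on the scaling.

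**Figure D1:**
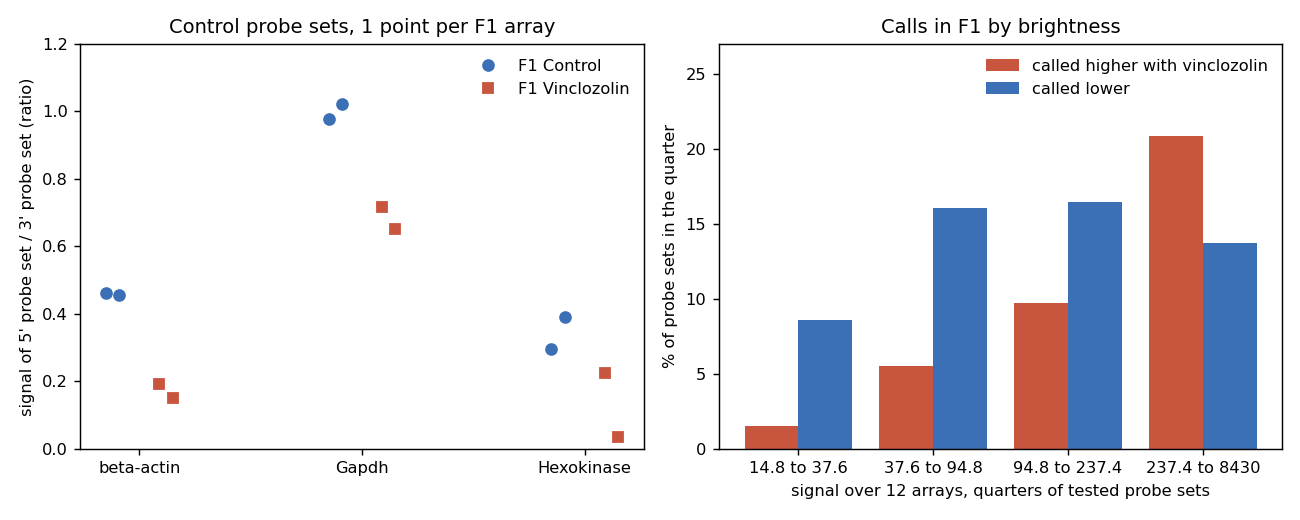
Left, ratio of the 5′ to the 3′ signal of 3 control transcripts (vertical axis, no unit), 1 point for each F1 array; both vinclozolin arrays lie below both control arrays for each transcript. Right, percent of tested probe sets called higher or lower in F1 (vertical axis) in 4 equal classes of the mean signal over the 12 arrays; the share called higher is 1.55% in the dimmest and 20.9% in the brightest class.

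Most genes with several probe sets did not give 1 answer. Of 3269 genes with at least 2 tested probe sets, 24 (0.734%) had every one called higher and 107 (3.27%) had every one called lower. A further 172 genes (5.26%) had both a higher and a lower call, 1144 (35%) were lower at some probe sets and not called at the rest, and 328 were higher at some and not called at the rest. Within these genes the brightest probe set was called higher in 12% and lower in 10.9%, with a median log2 fold change of 0.02. The other probe sets of the same genes were called higher in 4.08% and lower in 31.7%, with a median of −0.26. In 67.3% of 6160 pairs of probe sets for 1 gene, the dimmer had the lower fold change. A decrease seen with a single dim probe set was therefore common, and the positions of the probe sets in their transcripts were not used here.

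The 24 genes with every probe set higher had varied roles. Tmed9, a cargo receptor of the early secretory pathway, read 1069.6 and 1071 on control and 1489.8 and 1503 on vinclozolin arrays at its brighter probe set (0.48 ± 0.07, adjusted p = 0.000379) and 269 and 275 against 560.0 and 425 at the other (0.81 ± 0.12, adjusted p = 0.000321). Rbx1, the RING subunit of cullin ubiquitin ligases, read 1643 and 1674 against 1997 and 2423 (0.40 ± 0.09, adjusted p = 0.00524) and, at the dimmer probe set, 423 and 423 against 647 and 932 (0.85 ± 0.14, adjusted p = 0.000415). For both genes all 4 readings with vinclozolin lay above the control readings of the same probe set, as the choice of these genes required. Tnpo3, an import receptor that carries splicing factors into the nucleus, rose from 305 and 308 to 559.6 and 646 (0.94 ± 0.14, adjusted p = 0.000218), and its dimmer probe set by 0.41. Mfhas1 was higher at 3 probe sets by 0.39, 0.96 and 0.70, and Golph3l, a Golgi protein, by 0.63 and 0.69. Absence of overlap at every probe set was a condition for naming these genes, and 58.4% of all tested probe sets had it. Ribosomal and related members were Rpl7 (0.35 and 0.89), Rpsa (0.38, 0.56 and 0.63), the mitochondrial ribosomal gene Mrpl52 (0.58 and 0.57) and Gas5, a noncoding host gene of small nucleolar RNAs (0.75 and 0.41). Polr1d, a subunit shared by RNA polymerases I and III, Cfdp1 and Ppih, a spliceosome-associated cyclophilin, rose by 0.53, 0.59 and 0.58 at their brightest probe sets, and the dimmer one of Cfdp1 rose by 0.49. Without 1 array at a time, 6, 6, 21 and 10 of the 24 genes kept every call (without control replicate 1, control replicate 2, vinclozolin replicate 1 and vinclozolin replicate 2). Tmed9, Rbx1, Mdh1 and Ptp4a2 kept them in all 4 fits, and the last pair was named after this was seen. Tnpo3 (1 of 2 values), Mfhas1 (1 of 3 values), Rpl7 (1 of 2 values), Rpsa (1 of 3 values), Mrpl52 (2 of 2 values), Gas5 (1 of 2 values), Polr1d and Cfdp1 (1 of 2 values) lost the call without control replicate 1 (adjusted p = 0.0628 to 0.218). Tnpo3 (1 of 2 values), Mfhas1 (2 of 3 values), Golph3l (1 of 2 values), Mrpl52 (1 of 2 values), Gas5 (1 of 2 values), Polr1d, Ppih and Cfdp1 (1 of 2 values) lost the call without control replicate 2 (adjusted p = 0.0563 to 0.294). Cfdp1 (1 of 2 values) lost the call without vinclozolin replicate 1 (adjusted p = 0.147). Tnpo3 (1 of 2 values), Mfhas1 (1 of 3 values), Golph3l (1 of 2 values), Mrpl52 (1 of 2 values), Gas5 (1 of 2 values), Polr1d and Cfdp1 (1 of 2 values) lost the call without vinclozolin replicate 2 (adjusted p = 0.0666 to 0.447).

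The genes with every probe set lower were more numerous and moved further. Reep6, which shapes the endoplasmic reticulum, read 247 and 241 on control and 146 and 91.7 on vinclozolin arrays (−0.98 ± 0.15, adjusted p = 0.000358) and 129 and 108 against 13.2 and 8.8 at the dimmer probe set (−2.31 ± 0.16, adjusted p = 8.99e-07). Adam10, a membrane protease that sheds cell-surface proteins, read 142 and 135 against 45.2 and 18.8 (−1.74 ± 0.24, adjusted p = 0.000134) and 50.2 and 42.9 against 8.3 and 6.8 (−1.41 ± 0.18, adjusted p = 8.68e-05). Both vinclozolin arrays were low for these genes, as their choice required, and at Adam10's brighter probe set replicate 2 was the lower by far. RNA-binding proteins were among the members: Pabpc4, a poly(A)-binding protein, fell at log2 fold changes of −0.80 and −2.01, the helicase Ddx17 fell at log2 fold changes of −0.84 and −1.92, and the splicing factor Prpf38b fell at log2 fold changes of −0.38, −1.15 and −1.27. Peli2, a ubiquitin ligase, fell at log2 fold changes of −2.04 and −0.60, Clint1, a vesicle coat adaptor, fell at log2 fold changes of −1.04 and −1.23, and Csnk1e, a casein kinase of the clock and Wnt pathways, fell at log2 fold changes of −0.77, −1.13 and −1.36. The mitochondrial ribosomal gene Mrps2 fell at log2 fold changes of −0.42, −1.27 and −1.55, while 34 of 72 genes of its family rose. Fndc3b fell at log2 fold changes of −0.55, −1.22 and −1.62. In most of these genes a dimmer probe set fell further than the brightest, with Peli2 and Adam10 as exceptions. Of the 107 genes, 35, 34, 91 and 49 kept every call without control replicate 1, control replicate 2, vinclozolin replicate 1 and vinclozolin replicate 2, and 23 kept them in all 4 fits, Reep6, Adam10, Pabpc4, Ddx17, Peli2, Fndc3b, Soat1 and Por among them. Prpf38b (1 of 3 values) and Mrps2 (1 of 3 values) lost the call without control replicate 1 or vinclozolin replicate 2 (adjusted p = 0.0552 to 0.102). Prpf38b (1 of 3 values), Clint1 (1 of 2 values), Csnk1e (1 of 3 values) and Mrps2 (1 of 3 values) lost the call without control replicate 2 (adjusted p = 0.0504 to 0.0961). The low 5′/3′ ratios of the vinclozolin arrays stand beside these decreases, and their part was not tested.

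Genes with calls in both directions show how far probe sets of 1 gene parted. Tpm3, an actin-binding tropomyosin, had 12 tested probe sets: its brightest fell from 1477 and 1527 to 1195 and 1104 (log2 fold change −0.38), 5 others fell at log2 fold changes of −0.76 to −2.15, and 1 dim probe set rose from 72.5 and 69 to 231 and 249.9 (1.56 ± 0.17, adjusted p = 2.3e-05). Lrpprc, a regulator of mitochondrial mRNA, read 712 and 760.4 against 1084 and 1501 at its brightest probe set (0.78 ± 0.11, adjusted p = 0.000228) and 128 and 138 against 30.9 and 23.3 at another (−1.79 ± 0.17, adjusted p = 6.78e-06). The copper importer Slc31a1, the transcription factor Sp1, the deubiquitinase Usp8 and the mRNA export adaptor Fyttd1 did the same, higher at the brightest probe set by 0.63, 0.52, 0.27 and 0.75 with their lowest probe sets at −1.67, −1.89, −2.34 and −1.68. In these 5 genes, Lrpprc included, the rise was at the brightest probe set and the fall at a dim one. Tpm3 (1 of 4 values) and Usp8 (1 of 2 values) lost the call without control replicate 1 or control replicate 2 (adjusted p = 0.0653 to 0.182). Tpm3 (1 of 4 values) lost the call without vinclozolin replicate 1 (adjusted p = 0.133). Usp8 (1 of 2 values) lost the call without vinclozolin replicate 2 (adjusted p = 0.067).

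Regulators of the gonad's somatic cells gave a like split, with no call at the brightest probe set and a fall at a dimmer one. Wt1 read 929 and 814 on control and 897 and 721 on vinclozolin arrays at its bright probe set (−0.11 ± 0.11, adjusted p = 0.496), and 172 and 154 against 79.2 and 47.6 at the dim one (−1.20 ± 0.17, adjusted p = 0.000218). Gata4 had log2 fold changes of −0.08 (adjusted p = 0.637) and −1.05 (0.000394). Nr5a1, which switches on the steroidogenic genes, had −0.05 (0.852) and −1.59 (7.75e-05), and was chosen after its values were seen. The bright probe sets of both depended on the array. That of Gata4 differed by −0.31 without vinclozolin replicate 1 and by 0.14 without replicate 2. That of Nr5a1 read 454 and 406 on control and 515 and 335 on vinclozolin arrays. Kitlg, the germ cell growth factor of Sertoli cells, read 165 and 159 against 179 and 143 at its brightest probe set, where the groups overlapped, and fell by 0.95 at a dim one. 

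**Figure D2:**
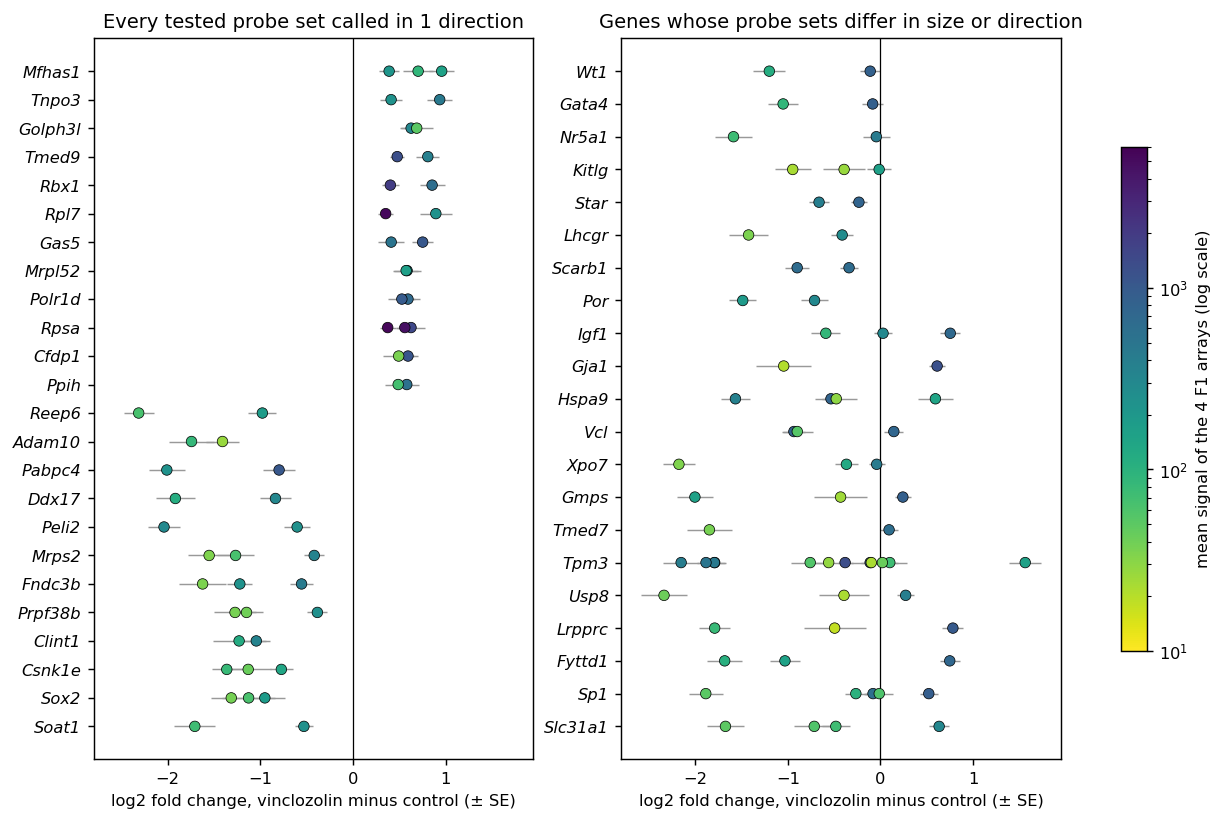
Log2 fold change of each tested probe set, vinclozolin minus control in F1 (horizontal axis, 2 arrays a group), 1 row per gene and 1 point per probe set, coloured by mean signal. Bars are ± SE, with the spread estimated from all 12 arrays. On the left are the 12 highest and 12 lowest genes whose probe sets were all called in 1 direction; on the right, in genes such as Wt1, Gata4 and Lrpprc, bright probe sets lie near or above 0 and dim ones lie near −1 to −2.

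Genes of Leydig cells were called in both directions. Hsd3b1 and Hsd17b3, enzymes of the path to testosterone, were higher. Por and Lhcgr, which serve electron supply and hormone reception, were lower at every probe set. So were Scarb1 (cholesterol uptake) and Soat1 (cholesterol storage). Scarb1 was named after its values were seen, and Soat1 for its common fall, not as a member of the list counted next. Pdgfa and Prlr were also among the called members of that list, whose log2 fold changes ran from −0.71 to 0.54. Of 20 Leydig cell genes tested at their brightest probe set, 4 were called higher and 3 lower, against 11.2% and 8.98% of 11293 genes (20.2% in either direction), and the median log2 fold change was 0.01 against 0.02 over all genes. Fitted on the F1 arrays alone, 0 were higher and 1 lower. Leaving out control replicate 1, control replicate 2, vinclozolin replicate 1 and vinclozolin replicate 2 in turn, 1, 0, 4 and 1 were higher and 1, 1, 5 and 2 lower; such counts are given in that order of arrays below. Hsd3b1 read 3056 and 3165 on control and 3558 and 4900.2 on vinclozolin arrays (0.42 ± 0.11, adjusted p = 0.0117). Hsd17b3, which makes testosterone from androstenedione, read 271 and 251 against 317 and 415 (0.45 ± 0.11, adjusted p = 0.00988). Vinclozolin replicate 2 was the highest for both, and without it their adjusted p was 0.0551 and 0.0675. Hsd3b1 was not called without either control array (0.084 and 0.0569), nor Hsd17b3 without control replicate 2 (0.0953). Cyp11a1, which cuts the cholesterol side chain, read 2521 and 2479 against 2493 and 2749 with overlapping groups (log2 fold change 0.07, adjusted p = 0.627). Cyp17a1 differed by 0.15 (0.237) and the Leydig peptide hormone Insl3 by 0.18 (0.124), neither past the threshold although both vinclozolin arrays read above both control arrays.

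Several genes of cholesterol supply were lower. Por, the reductase that feeds electrons to Cyp17a1 and the other microsomal P450 enzymes, read 391 and 368 on control and 269.5 and 188 on vinclozolin arrays (−0.71 ± 0.14, adjusted p = 0.00226) and 289.8 and 273 against 113 and 71.5 at its dimmer probe set (−1.49 ± 0.14, adjusted p = 8.55e-06). Soat1, which esterifies cholesterol for storage, read 306 and 275 against 202 and 190.1 (−0.53 ± 0.10, adjusted p = 0.00153) and fell by 1.71 at the other probe set. Lhcgr, the receptor for luteinizing hormone, read 317 and 317 against 248 and 220.4 (−0.41 ± 0.12, adjusted p = 0.0205) and 52.4 and 65.8 against 12.8 and 11 (−1.42 ± 0.21, adjusted p = 0.000218). All of these probe sets were low on both vinclozolin arrays, as was every probe set called lower. The call at Lhcgr's brighter probe set was lost without control replicate 1 (adjusted p = 0.102), control replicate 2 (0.104) or vinclozolin replicate 2 (0.0952), and with median centring. Scarb1, the receptor for cholesterol from high-density lipoprotein, fell at log2 fold changes of −0.34 and −0.90, and Hsd17b7, an enzyme of cholesterol synthesis, at −0.38 and −0.51. Lss, which forms lanosterol, fell at log2 fold changes of −0.64 and −1.12, and Scap, which escorts the sterol sensor proteins, at −0.55 and −1.11. In the list of cholesterol and fatty acid synthesis, 7 of 34 genes were called lower and 2 higher, against 8.98% and 11.2% of all genes. Their median was −0.12. With median centring it was −0.001, with 3 lower and 3 higher. The counts without each array were 3, 1, 13 and 4 lower and 0, 0, 3 and 2 higher. Of 17 with several probe sets, 4 were lower at every one, Elovl6 with Lss, Scap and Hsd17b7. Star, which carries cholesterol into the mitochondrion, read 849.6 and 829 against 722 and 701 at its brighter probe set (−0.23 ± 0.09, adjusted p = 0.0701) and fell by 0.66 at the other. Scarb1 (1 of 2 values), Hsd17b7 (1 of 2 values) and Lss (1 of 2 values) lost the call without control replicate 1 (adjusted p = 0.0629 to 0.225). Scarb1 (1 of 2 values), Hsd17b7 (2 of 2 values) and Scap (1 of 2 values) lost the call without control replicate 2 (adjusted p = 0.067 to 0.102). Scarb1 (1 of 2 values), Hsd17b7 (1 of 2 values) and Scap (1 of 2 values) lost the call without vinclozolin replicate 2 (adjusted p = 0.0602 to 0.0916). The lower 5′/3′ ratios stand beside these decreases too, and their part was not tested. In pooled testes, fewer cells of a type and less RNA per cell cannot be told apart.

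Sertoli cell genes showed no common direction: of 20 tested, 3 were higher and 3 lower, against 11.2% and 8.98% of all genes. Their median was −0.09 (0.03 with median centring). With 1 array left out, 1, 2, 8 and 2 were lower and 1, 0, 3 and 2 higher. Amh differed by −0.19 (adjusted p = 0.099). Dmrt1, a transcription factor of Sertoli and germ cells that maintains male identity, read 106 and 104 on control and 38.4 and 29.3 on vinclozolin arrays (−1.29 ± 0.14, adjusted p = 2.77e-05). Fgf9, a growth factor that promotes testis fate, rose at its brighter probe set from 106 and 98.3 to 144 and 154 (0.48 ± 0.13, adjusted p = 0.0141), and differed by −0.19 at the other. Ptgds, which makes prostaglandin D2, read 63.4 and 54.2 against 258 and 84 (1.15 ± 0.31, adjusted p = 0.0155). Most of that rise was on vinclozolin replicate 1, and without that array the adjusted p was 0.133, while Dmrt1 was low on both arrays and was called in all 4 fits that left 1 out. Fgf9 lost the call without control replicate 1, control replicate 2 or vinclozolin replicate 2 (adjusted p = 0.0521 to 0.114).

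Of 14 germ cell genes tested, 4 were called lower and 1 higher, against 8.98% and 11.2% of all genes, with a median of −0.18 (−0.07 with median centring), Dmrt1 being among the lower ones. Without 1 array in turn, 3, 3, 5 and 3 were lower and 0, 0, 1 and 0 higher. Kit, the receptor by which germ cells and young Leydig cells receive the Kitlg signal, read 76.3 and 80 on control and 20.2 and 2.5 on vinclozolin arrays (−1.86 ± 0.26, adjusted p = 0.000142), and was lowest on replicate 2. Sox2, a transcription factor of pluripotent cells, fell at its 3 probe sets at log2 fold changes of −0.95, −1.31 and −1.13. The first and the last were not called without vinclozolin replicate 2 (adjusted p = 0.0566 and 0.13), nor the last without control replicate 2 (0.0722). Mov10l1, a helicase of the piRNA pathway, read 38.3 and 38.5 against 11.6 and 22.4 (−0.74 ± 0.21, adjusted p = 0.017). The 1 higher gene was Ddx25, a testis RNA helicase that is known to respond to gonadotropin, at 90.2 and 98 against 115 and 183 (0.55 ± 0.17, adjusted p = 0.0309). Mov10l1 and Ddx25 lost the call without control replicate 1 or control replicate 2 (adjusted p = 0.0827 to 0.16). Mov10l1 lost the call without vinclozolin replicate 1 (adjusted p = 0.106). Ddx25 lost the call without vinclozolin replicate 2 (adjusted p = 0.314). On the control arrays the lower members read 38.3 to 248.

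Among the largest rises of genes with a single probe set were immediate early genes, transcription factors that are switched on within minutes of a stimulus. The 2 promoters shown are the stretch just before the start of 2 of them, since they rose together; capitals mark TGACGTCA, the full cAMP response element.
Fosb: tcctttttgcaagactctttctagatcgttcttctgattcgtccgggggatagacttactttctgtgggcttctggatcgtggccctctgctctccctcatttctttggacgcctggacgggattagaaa
Ier2: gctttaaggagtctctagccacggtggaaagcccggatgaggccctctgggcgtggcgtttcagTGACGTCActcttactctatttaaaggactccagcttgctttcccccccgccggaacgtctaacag
These are the 130 bases before the annotated start in RefSeq, build GRCr8, at chr1:88089185-88089314 on the minus strand and chr19:40399243-40399372 on the plus strand. The element begins 66 bases before the start of Ier2, and the 130 bases shown for Fosb do not hold it. Searched on both strands in the 250 bases before the start, it is in 1.59% of 33469 RefSeq promoter windows. The same search found it in 5 of the 22 immediate early genes that had an entry.

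Fos, which forms the factor AP-1 with Jun, read 22.3 and 29.2 on control and 141 and 374 on vinclozolin arrays (2.57 ± 0.29, adjusted p = 2.93e-05). Its relative Fosb read 0.6 and 2.9 against 24.5 and 79.4 (1.81 ± 0.35, adjusted p = 0.00171), so it was low on both control arrays. Ier2 read 92.1 and 70.6 against 223 and 219 (1.29 ± 0.15, adjusted p = 4.46e-05), and Egr1, a zinc finger factor, 466 and 451 against 734 and 941 (0.84 ± 0.17, adjusted p = 0.00301). For Fos and Fosb vinclozolin replicate 2 read over the first replicate, while Ier2 was alike on both, and all 4 genes were called in each fit that left out 1 array. Of 25 immediate early genes tested, 5 were called higher and 3 lower, against 11.2% and 8.98% of all genes, with a median of −0.11 (0.01 with median centring). At their brightest probe sets Jund rose by 0.34 and Nr4a1, Jun and Ier3 fell at log2 fold changes of −0.49, −0.43 and −0.41. Other probe sets had the opposite sign without a call in limma's fit, Jund at −0.46 (adjusted p = 0.179) and Jun at 0.42 (0.0998, and 0.0293 without vinclozolin replicate 1). Leaving out 1 array in turn gave 0, 0, 4 and 1 lower and 5, 6, 5 and 5 higher. Nr4a1, Jun and Ier3 lost the call without control replicate 1, control replicate 2 or vinclozolin replicate 2 (adjusted p = 0.0515 to 0.212). Ier3 lost the call without vinclozolin replicate 1 (adjusted p = 0.0529). In the test against F2 and F3, Fos, Fosb, Ier2 and Egr1 had adjusted p of 0.908, 0.682, 0.94 and 0.655, and 7 of the 25 were called higher in F3.

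Other genes with 1 probe set that rose most included Pi16, a peptidase inhibitor, from 3.1 and 7.3 to 42.6 and 46.1 (1.52 ± 0.21, adjusted p = 0.000142). Its control readings lay below the dim limit of 14.8 as well. Metrn, a secreted factor of glia, rose from 26.1 and 34.8 to 74.9 and 114 (1.23 ± 0.17, adjusted p = 0.000174). Those that fell most included Prss35, a secreted protein of the serine protease family, which read 634 and 654 against 79.1 and 224 (−2.13 ± 0.36, adjusted p = 0.000775) and was lower on replicate 1. Golph3, a Golgi protein, fell from 202 and 200.3 to 51.1 and 37.4 (−1.86 ± 0.15, adjusted p = 2.77e-06), while its relative Golph3l was among the genes with every probe set higher. Sgpl1, the lyase of sphingosine 1-phosphate, fell by 1.77 while Pus3, a pseudouridine synthase, was at −1.71. Ddx3x-ps1 fell from 423 and 427 to 95.1 and 85.3, a pseudogene whose probes may also catch its near-identical parent. 

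**Figure D3:**
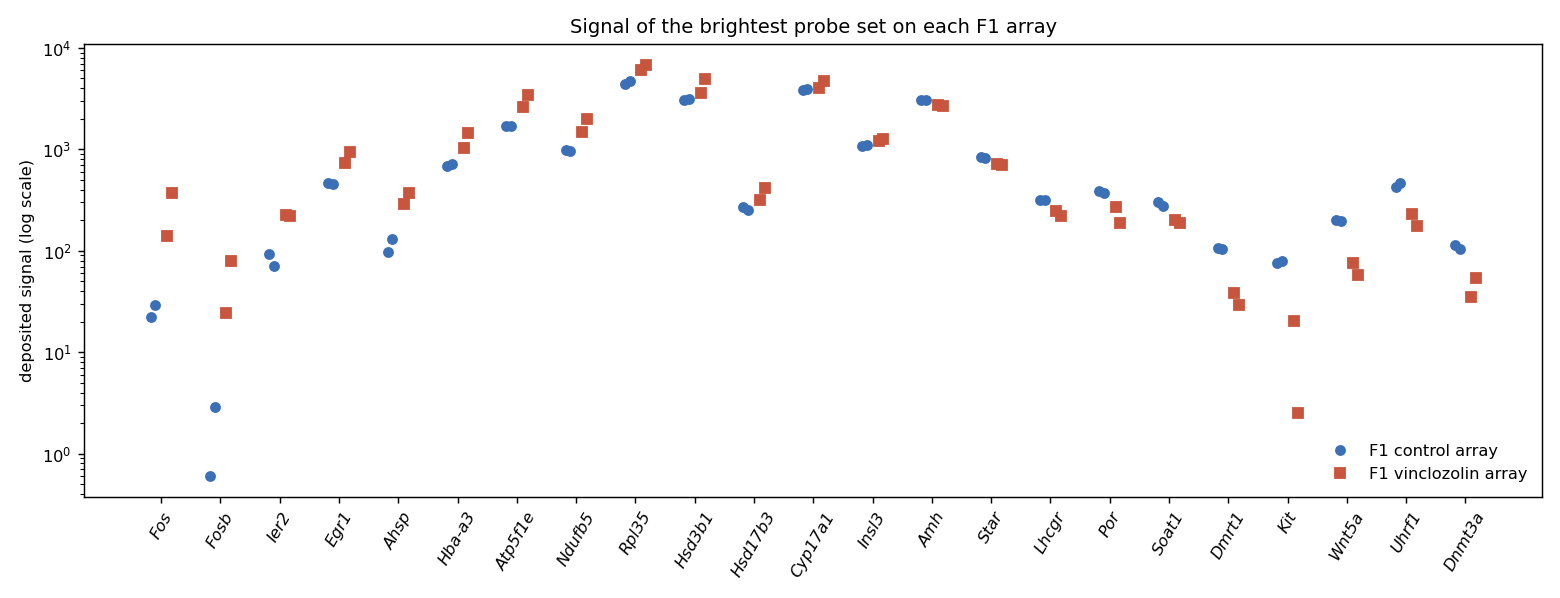
Deposited signal (vertical axis, log scale) of the brightest probe set of 23 genes on each F1 array, circles for the 2 control and squares for the 2 vinclozolin arrays. Fos reads 22.3 and 29.2 on control against 141 and 374 on vinclozolin arrays, the Leydig enzymes Hsd3b1 and Hsd17b3 are above control, and Por, Soat1, Dmrt1 and Kit are below.

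Of 16 erythroid genes tested at their brightest probe set, 7 were called higher and none lower, against 11.2% and 8.98% of all genes. Their median was 0.28 (0.26 to 0.40 under the scalings tried). At an unadjusted p under 0.05 limma gave 9 higher and 1 lower. The 7 were all genes with 1 tested probe set. The 3 genes with several each had a probe set called lower. Ahsp, the chaperone of free alpha globin, read 98.2 and 131 on control and 290.2 and 373 on vinclozolin arrays (1.41 ± 0.16, adjusted p = 2.82e-05). The alpha-like globin Hba-a3 read 679.6 and 722 against 1031 and 1461 (0.80 ± 0.14, adjusted p = 0.00106), Hbz 602 and 552 against 798 and 1160.1 (0.72 ± 0.16, adjusted p = 0.00374), and Hbe2 9 and 11.6 against 38.7 and 25.3 (0.86 ± 0.24, adjusted p = 0.0186). Replicate 2 was the higher for all of these but Hbe2, which was not called without vinclozolin replicate 1 (adjusted p = 0.0992) or without either control array (0.111 and 0.0647). The control readings of Hbe2 lay below the dim limit of 14.8. Globin genes are near copies of each other, so their probe sets may share signal. The summed signal of the 16 genes was 13261 and 13668 on control arrays and 16117 and 19724 on vinclozolin arrays. The membrane band 3 gene Slc4a1 and the erythroid factor Gata1 were not called (−0.37 and −0.10). Without vinclozolin replicate 2, 6 of the 16 were higher, without control replicate 2, 4, and without control replicate 1, 5. Fitted on the F1 arrays alone, 4 of the 16 were higher. The part of red cells in other results was not tested.

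Markers of other tissues that a dissection could carry along had a smaller share of calls than the erythroid genes. Over all genes 11.2% were called higher and 8.98% lower. None of 17 macrophage and complement genes was called in limma's fit (at an unadjusted p under 0.05, 1 higher and 0 lower), 1 was called without vinclozolin replicate 1, and their summed signal was 877 and 904 on control against 826 and 953 on vinclozolin arrays. Of 12 genes of the mesonephros and ducts, 2 were lower, Pax8 (40.2 and 23.8 against 5.2 and 7.9, −1.07 ± 0.29, adjusted p = 0.015) and Esrp1 (at −0.43), with sums of 1934 and 1940 against 1868 and 1974. Of 12 skeletal and cardiac muscle genes, Tnni1 rose by 0.71 and Tnnc1 by 0.52 and Acta1 fell by 0.80, with sums of 1122 and 1163 against 1383 and 1538. Of 14 nerve and Schwann cell genes, Pmp22 rose by 0.34 at its brightest probe set and fell by 1.17 at another, and Erbb3 fell by 1.04, with sums of 2607 and 2604 against 2962 and 3007. The only adrenal cortex gene called of 5 was Hsd3b1, which the testis expresses too, and the sums of the 5 were 3695 and 3704 against 4242 and 5433. Pax8, Esrp1, Tnnc1, Acta1 and Pmp22 (1 of 2 values) lost the call without control replicate 1 (adjusted p = 0.0568 to 0.149). Esrp1, Tnni1, Tnnc1 and Pmp22 (1 of 2 values) lost the call without control replicate 2 (adjusted p = 0.0589 to 0.129). Esrp1, Tnni1 and Tnnc1 lost the call without vinclozolin replicate 2 (adjusted p = 0.0776 to 0.169). Muscle, nerve and adrenal cortex sums were thus above control on both vinclozolin arrays, and their part in other results was not tested.

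Calls in supporting cells of the testis are set beside 8.98% lower and 11.2% higher over all genes. Of 17 endothelial genes, 4 were lower and 1 higher, with a median of −0.10 (0.02 with median centring). They were the transcription factors Erg (at −0.74 and −1.12), Sox17 (−0.69) and Sox18 (−0.65) and the fenestra protein Plvap (−0.50), while the tight junction gene Cldn5 rose by 0.48. Their summed signal was 2714 and 2515 on control arrays and 2697 and 2253 on vinclozolin arrays, so only replicate 2 was below both. The counts without each array were 2, 1, 6 and 2 lower and 1, 0, 2 and 1 higher. Of 15 myoid and smooth muscle genes, Acta2, smooth muscle actin, read 458 and 493 against 304 and 273 (−0.69 ± 0.10, adjusted p = 0.000157) and its coactivator gene Myocd fell by 0.94, while the myosin light chain Myl9 rose by 0.32. Of 21 stromal and progenitor genes 3 were higher and 3 lower. With 1 array left out, 3, 4, 7 and 5 were lower and 2, 1, 3 and 2 higher. Wnt5a, a secreted signal, read 201 and 197 against 75.4 and 57.4 (−1.39 ± 0.14, adjusted p = 9.42e-06), and Tcf21, a transcription factor of stromal progenitors, 943 and 959.9 against 627 and 582 (−0.64 ± 0.10, adjusted p = 0.000277). Igf1, a growth factor, rose at its brightest probe set from 527 and 501 to 773 and 996 (0.75 ± 0.11, adjusted p = 0.000235), was level at another (0.03) and fell at the dimmest at −0.59. Sox18, Plvap and Myl9 lost the call without control replicate 1 (adjusted p = 0.0589 to 0.118). Erg (1 of 2 values), Sox17, Plvap, Cldn5 and Igf1 (1 of 2 values) lost the call without control replicate 2 (adjusted p = 0.0715 to 0.151). Igf1 (1 of 2 values) lost the call without vinclozolin replicate 1 (adjusted p = 0.0737). Sox17 and Plvap lost the call without vinclozolin replicate 2 (adjusted p = 0.0742 to 0.263).

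Genes of protein synthesis, respiration and protein breakdown were raised across many members. Of 42 cytosolic ribosomal protein genes tested, 31 were called higher and none lower, against 11.2% and 8.98% of all genes, and their median was 0.31; at an unadjusted p under 0.05 limma gave 38 higher and 0 lower. Rpl35 read 4395 and 4686 on control and 6037 and 6859.6 on vinclozolin arrays (0.50 ± 0.09, adjusted p = 0.000723), and Rps3 4484 and 4568 against 5926 and 6298 (0.43 ± 0.08, adjusted p = 0.00172). The rise of these genes depended on the scaling: with quantile normalization 3 were higher and 1 lower (median 0.06), and with cyclic loess 3 were higher (median 0.10). Rpl35 and Rps3 lie in the brightest class of probe sets, where calls of a rise were most frequent. Fitted on the F1 arrays alone, 2 of the 42 were higher, where 608 of 21729 probe sets were. The count also went to 19 higher without vinclozolin replicate 2, 9 without control replicate 1 and 14 without control replicate 2. 

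Respiratory chain genes kept more of their calls under other scalings. Over all genes 11.2% were called higher and 8.98% lower. Of 34 genes of complex I, the first enzyme of the respiratory chain, 20 were higher and none lower, with a median of 0.32, and of 36 genes of complexes II to V, 24 were higher and none lower, with a median of 0.38. At an unadjusted p under 0.05 limma gave 25 higher and 0 lower for complex I and 27 higher and 1 lower for the others. Under quantile normalization the counts were 14 higher and none lower for complex I, and 19 higher and 2 lower for the others. Fitted on the F1 arrays alone, 8 of 34 and 9 of 36 were higher and none lower. Atp5f1e, a subunit of ATP synthase, read 1691 and 1687 on control and 2630.1 and 3451 on vinclozolin arrays (0.83 ± 0.12, adjusted p = 0.000183). Uqcr10, of complex III, read 1517 and 1491 against 2201 and 3118 (0.79 ± 0.12, adjusted p = 0.000367), and Ndufb5, of complex I, 986 and 955 against 1489.5 and 2006 (0.82 ± 0.12, adjusted p = 0.000192). On all 3, replicate 2 read above replicate 1 and both read above control. Ndufa7 rose by 0.92 at its bright probe set and differed by −0.08 at the other. Without vinclozolin replicate 2, 14 and 19 genes were higher; without control replicate 1, 14 and 13; without control replicate 2, 10 and 16. Of 72 mitochondrial ribosomal genes 34 were higher and 2 lower (median 0.33), led by Mrpl48 at 499.7 and 440.0 against 877 and 1115 (1.05 ± 0.13, adjusted p = 4.58e-05), and 33 were higher under quantile normalization. Of 39 proteasome genes 14 were higher and none lower (median 0.21, and at an unadjusted p under 0.05 20 higher and 0 lower), Psmb4 reading 2128 and 2104 against 2777 and 3789 (0.61 ± 0.11, adjusted p = 0.000988), and of 40 lysosome genes 9 were higher and 1 lower (median 0.16), Psap, the precursor of the saposins, reading 948 and 812 against 1568 and 1348 (0.72 ± 0.10, adjusted p = 0.000137). Without vinclozolin replicate 2 these counts of higher genes were 20, 9 and 8, without control replicate 1 20, 6 and 2, and without control replicate 2 13, 8 and 3, and without vinclozolin replicate 1 50, 25 and 15. Summed signal over the complex I genes was 29299 and 28773 on control arrays and 33589 and 42818 on vinclozolin arrays, and vinclozolin replicate 2, the array with the lowest 5′/3′ ratios, was the highest in these lists. On the F1 arrays alone, mitochondrial ribosomal, proteasome and lysosome genes were called higher in 10, 3 and 1. The part of RNA quality in these rises was not tested.

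**Figure D4:**
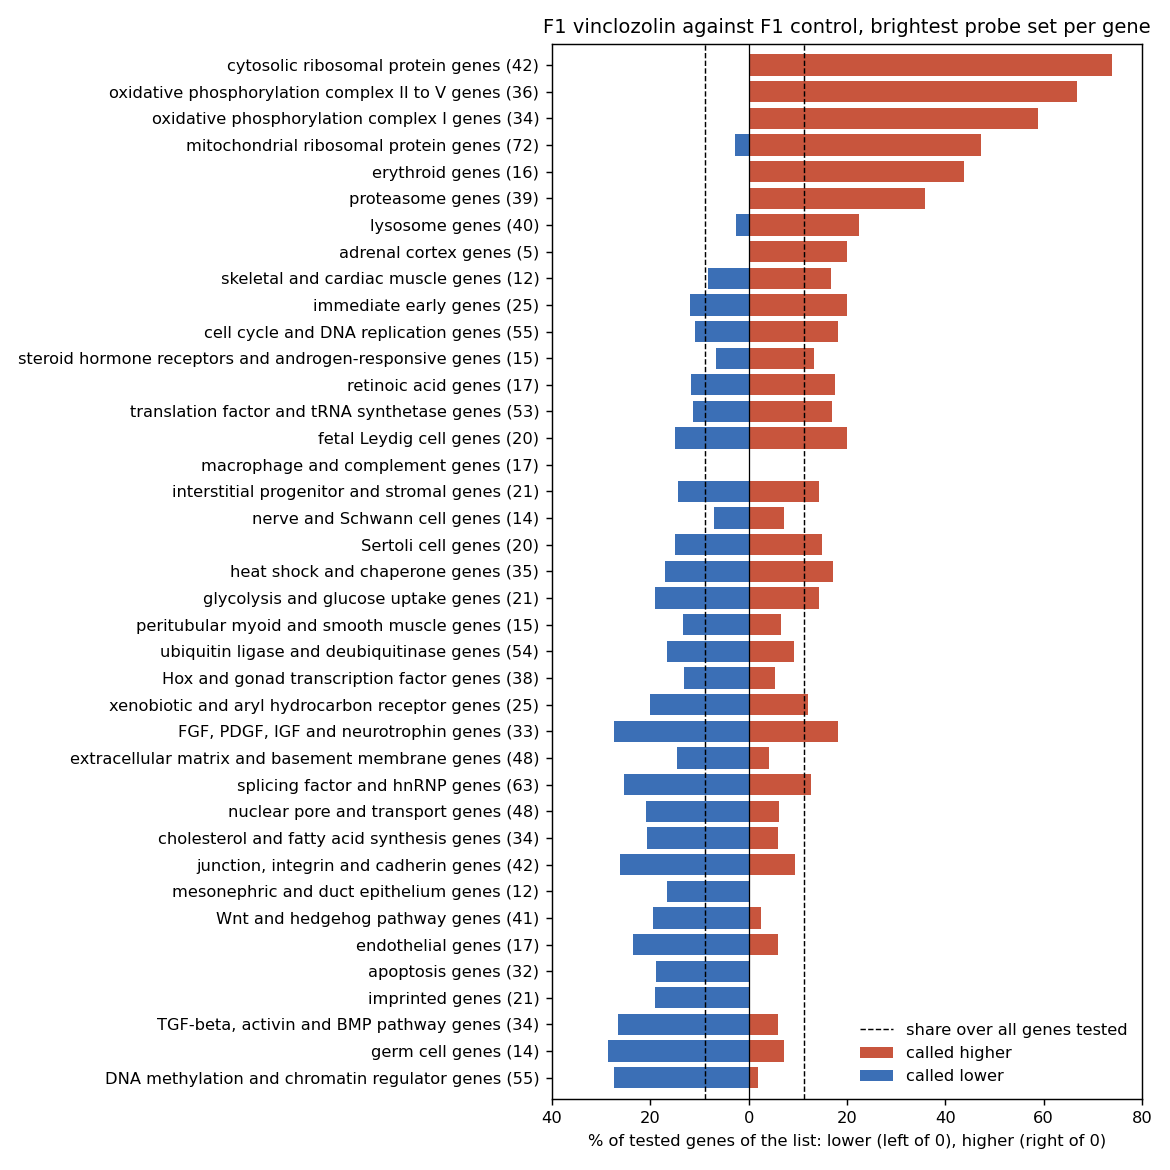
Percent of the tested genes of each of 39 lists called higher (right of 0) or lower (left of 0) in F1 by limma at an adjusted p under 0.05, with the number tested in brackets; dashed lines mark 11.2% higher and 8.98% lower over all genes. Ribosomal, respiratory and erythroid lists extend furthest to the right, and germ cell, chromatin and growth factor lists furthest to the left.

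More of the genes that write and read chromatin marks were lower than higher. Of 55 tested, 15 were called lower and 1 higher at the brightest probe set, against 8.98% and 11.2% of all genes, with a median of −0.16. With median centring 11 were lower and 5 higher, with a median of −0.045. The 1 higher was the heterochromatin protein gene Cbx1, whose probe sets went opposite ways: the brightest rose by 0.45, and another read 329.6 and 334 against 104 and 66.8 (−1.81 ± 0.16, adjusted p = 4.4e-06) and was called lower in all 4 fits that left out 1 array. Dnmt3a, a de novo DNA methyltransferase, read 115 and 105 on control and 34.7 and 53.6 on vinclozolin arrays (−1.08 ± 0.19, adjusted p = 0.00106) and 92.2 and 91.6 against 60.4 and 67.4 at its dimmer probe set (−0.43 ± 0.13, adjusted p = 0.0223). That second call was lost without either control array, without vinclozolin replicate 1 (adjusted p = 0.112, 0.109 and 0.0617) and with median centring or quantile normalization. Uhrf1, which brings the maintenance methylase to newly copied DNA, read 426 and 464 against 233 and 175 (−1.08 ± 0.14, adjusted p = 7.32e-05) and the maintenance methylase Dnmt1 fell by 0.53. Dnmt3b read 51.1 and 31.4 against 25.7 and 3.9 (−0.97 ± 0.30, adjusted p = 0.0278), close to background, and was not called without control replicate 1 (0.216) or vinclozolin replicate 2 (0.315). Tet3, which oxidizes methylated cytosine, fell at log2 fold changes of −0.73 and −0.66, and Tet1 at −0.62. Dnmt3a, Tet3 and Kmt2c, a histone methyltransferase, were the 3 of 26 with several probe sets that were lower at all of them. With the probe set of least change for each gene, 9 were lower and none higher. On the F1 arrays alone, 8 were lower and none higher. Without vinclozolin replicate 2, 10 were lower and 3 higher, without control replicate 1, 7 were lower, without control replicate 2, 11, and without vinclozolin replicate 1, 25, with 3 higher. Dnmt1 and Tet3 (1 of 2 values) lost the call without control replicate 1 (adjusted p = 0.0724 to 0.0788). Tet3 (1 of 2 values) lost the call without control replicate 2 or vinclozolin replicate 1 (adjusted p = 0.0829 to 0.0954). Dnmt1 lost the call without vinclozolin replicate 2 (adjusted p = 0.0597). The 5′/3′ ratios moved with this group as with the other decreases, and their part was not tested.

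Signalling genes were called in both directions, where 8.98% of all genes were lower and 11.2% higher. Of 34 genes of TGF-beta, activin and BMP signalling, 9 were lower and 2 higher (median −0.18), and with median centring 4 were lower and 4 higher. The inhibitory Smad genes fell, Smad6 at −0.69 and Smad7 at −0.57, Id3, a target of BMP signals, at −0.53, and the activin subunit Inhba rose from 131 and 104 to 184 and 195 (0.63 ± 0.13, adjusted p = 0.00233). Without 1 array in turn, 1, 3, 14 and 5 were lower and 2, 1, 2 and 3 higher. Of 41 Wnt and hedgehog genes, 8 were lower and 1 higher (median −0.12, −0.002 with median centring). Leaving out 1 array in turn gave 5, 5, 15 and 6 lower and 1, 0, 1 and 2 higher. Dvl2, which relays Wnt signals from the receptor, read 57.8 and 47.3 against 9.3 and 8.2 (−1.47 ± 0.18, adjusted p = 5.09e-05), and Lgr4, a receptor for R-spondins, 202 and 178 against 73.7 and 68.6 (−1.24 ± 0.13, adjusted p = 1.54e-05). Of 33 genes of growth factors with tyrosine kinase receptors, 9 were lower and 6 higher, and with median centring 5 were lower and 7 higher. The counts without each array were 4, 3, 13 and 3 lower and 3, 1, 5 and 5 higher. The ligand Pdgfc fell by 1.16, the feedback inhibitor Spry1 at −0.98 and the insulin receptor Insr at −0.83. Leydig cell Pdgfa rose by 0.45, a call that was lost without either control array (adjusted p = 0.259 and 0.0666) or vinclozolin replicate 1 (0.168). Of 15 steroid receptors and androgen-responsive genes, 2 were higher and 1 lower: Igf1 and Rhox5, a homeobox gene of Sertoli cells, rose (0.27 for Rhox5) and the coactivator Ncoa3 fell by 0.59. Of 17 retinoic acid genes, 3 were higher and 2 lower. The synthetic enzyme Rdh10 read 93 and 95.5 against 44.9 and 39.4 (−0.92 ± 0.14, adjusted p = 0.000367) and the receptor Rara fell by 0.62, while Rxrb and Rarres2 rose by 0.47 and 0.51. Smad6, Smad7, Rhox5, Rara and Rxrb lost the call without control replicate 1 (adjusted p = 0.0721 to 0.291). Inhba, Insr, Rhox5, Ncoa3, Rara, Rxrb and Rarres2 lost the call without control replicate 2 (adjusted p = 0.0509 to 0.233). Rhox5 and Rxrb lost the call without vinclozolin replicate 1 (adjusted p = 0.108 to 0.177). Smad6, Insr, Ncoa3, Rara and Rarres2 lost the call without vinclozolin replicate 2 (adjusted p = 0.079 to 0.221).

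Of 48 matrix and basement membrane genes, 7 (14.6%) were lower and 2 (4.17%) higher, where 8.98% and 11.2% of all genes were, so the share called in either direction was near the 20.2% of all genes. Col4a1, a basement membrane collagen, read 1396 and 1413 against 1189.5 and 659 (−0.65 ± 0.17, adjusted p = 0.0118), Fn1, fibronectin, fell by 0.56 and Nid2 at −0.54, while the protease inhibitor Timp1 rose by 0.58. Vinclozolin replicate 2 was the low array for Col4a1, and with median centring 4 of the 48 were lower and 5 higher. With 1 array left out, 3, 0, 16 and 3 were lower and 1, 2, 2 and 3 higher. Of 42 junction genes 11 were lower and 4 higher, and with median centring 4 were lower and 5 higher. Vcl, which links cadherins and integrins to actin, read 1083 and 1063 against 655 and 468 (−0.93 ± 0.12, adjusted p = 6.35e-05) at its brightest probe set and differed by 0.14 at another, and Cdh11, a cadherin of stroma, fell from 1476 and 1460.0 to 1019 and 1015 (−0.52 ± 0.09, adjusted p = 0.000613) and differed by 0.09 at another probe set. The gap junction gene Gja1 rose from 965 and 972 to 1469 and 1507 (0.61 ± 0.09, adjusted p = 0.000225) at its bright probe set and fell by 1.04 at a dim one. Cdh2 and Ocln, of the Sertoli cell junctions, were lower at both of their probe sets, Cdh2 at −0.47 and −0.63 and Ocln at −0.44 and −0.58. Without 1 array in turn, 2, 3, 16 and 5 were lower and 3, 2, 4 and 4 higher. Col4a1, Gja1 (1 of 2 values), Cdh2 (1 of 2 values) and Ocln (2 of 2 values) lost the call without control replicate 1 (adjusted p = 0.0607 to 0.119). Col4a1, Fn1, Nid2, Gja1 (1 of 2 values) and Ocln (2 of 2 values) lost the call without control replicate 2 (adjusted p = 0.0584 to 0.149). Fn1, Gja1 (1 of 2 values), Cdh2 (1 of 2 values) and Ocln (1 of 2 values) lost the call without vinclozolin replicate 2 (adjusted p = 0.0753 to 0.28).

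Of 21 imprinted genes 4 were lower and none higher at the brightest probe set, against 8.98% and 11.2% of all genes, while 2 were higher at another probe set and with median centring 3 were lower and 1 higher. At an unadjusted p under 0.05 limma gave 0 higher and 5 lower. Plagl1, a zinc finger regulator of the imprinted network, read 2146 and 2328 against 1738 and 1087 (−0.69 ± 0.15, adjusted p = 0.00387), Gnas fell by 0.37, Sgce at −0.46 and the growth factor Igf2 at −0.27. The call of Igf2 was lost with median centring and without control replicate 1, control replicate 2 or vinclozolin replicate 2 (adjusted p = 0.116, 0.183 and 0.0933). Leaving out 1 array in turn gave 2, 1, 7 and 6 lower and 0, 0, 1 and 1 higher. Of 32 apoptosis genes 6 were lower and none higher, with median centring 4 and 1 (at an unadjusted p under 0.05, 0 higher and 8 lower), among them Bcl2l2, a survival protein (at −0.92), the death receptor Tnfrsf1a (−0.66), Bid (−0.51 and −0.90) and Casp6 (−0.45). The counts without each array were 3, 3, 7 and 5 lower and 0, 0, 3 and 0 higher. Survival and death genes were thus both among the lower ones. Their medians, −0.12 in both lists, were −0.005 and 0.001 with median centring. Sgce and Bid (1 of 2 values) lost the call without control replicate 1 (adjusted p = 0.0574 to 0.133). Gnas, Sgce, Bid (1 of 2 values) and Casp6 lost the call without control replicate 2 (adjusted p = 0.0523 to 0.0852). Bid (1 of 2 values) lost the call without vinclozolin replicate 2 (adjusted p = 0.132).

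The remaining lists held members of both directions, where 8.98% of all genes were called lower and 11.2% higher. Splicing factors were lower in 16 and higher in 8 of 63, with Hnrnpf at 1104 and 1139 against 626 and 597 (−0.86 ± 0.09, adjusted p = 2.36e-05), and with median centring the split turned to 9 lower and 15 higher. With 1 array left out, 7, 6, 19 and 12 were lower and 2, 1, 16 and 6 higher. Nuclear transport genes were lower in 10 and higher in 3 of 48, with Xpot, the exporter of tRNA, at 319 and 319.5 against 158 and 118 (−1.14 ± 0.12, adjusted p = 2.38e-05). Without 1 array in turn, 5, 4, 18 and 6 were lower and 2, 1, 5 and 2 higher. Ubiquitin ligases and deubiquitinases were lower in 9 and higher in 5 of 54, led by the ligase Siah1, which fell by 1.33. Leaving out 1 array in turn gave 4, 4, 13 and 7 lower and 1, 0, 10 and 4 higher. Translation factors were higher in 9 and lower in 6 of 53, Eif3h rising by 0.61 and Farsa falling, at −0.52. The counts without each array were 1, 2, 11 and 4 lower and 3, 3, 16 and 10 higher. Cell cycle genes were higher in 10 and lower in 6 of 55: Ccnd2, a cyclin of the G1 phase, rose from 523 and 551 to 770.1 and 925 (0.64 ± 0.13, adjusted p = 0.00215) and the cyclin-dependent kinase Cdk2 fell by 0.65. With 1 array left out, 2, 2, 8 and 6 were lower and 3, 3, 14 and 7 higher. Chaperones were split at 6 and 6 of 35, with Hspa9, the mitochondrial Hsp70, lower at −0.53 and −1.57 at 2 probe sets and higher by 0.59 at another. Without 1 array in turn, 1, 2, 9 and 4 were lower and 1, 0, 12 and 2 higher. Glycolysis genes were lower in 4 and higher in 3 of 21: Eno2 rose from 45.8 and 38.6 to 114 and 99.3 (1.07 ± 0.17, adjusted p = 0.00036), Pgk1 rose at both of its probe sets by 0.66 and 0.30, and Hk2 fell by 0.80. Leaving out 1 array in turn gave 1, 1, 8 and 2 lower and 3, 2, 5 and 3 higher. Xenobiotic genes were lower in 5 and higher in 3 of 25: Arnt, the partner of the aryl hydrocarbon receptor, fell by 1.07, the glutathione transferase Gstm2 at −0.73, and the metallothionein Mt3 rose by 0.97. The counts without each array were 2, 3, 5 and 1 lower and 2, 2, 5 and 3 higher. Hox and gonad transcription factors were lower in 5 and higher in 2 of 38, with the Gata cofactor Zfpm1 lower at −1.18 and Pbx2 higher by 0.75. With 1 array left out, 3, 4, 9 and 4 were lower and 1, 1, 3 and 3 higher. Farsa, Hspa9 (1 of 3 values) and Pgk1 (1 of 2 values) lost the call without control replicate 1 (adjusted p = 0.0622 to 0.174). Hspa9 (1 of 3 values) and Pgk1 (1 of 2 values) lost the call without control replicate 2 (adjusted p = 0.0827 to 0.101). Hspa9 (1 of 3 values) and Arnt lost the call without vinclozolin replicate 2 (adjusted p = 0.0637 to 0.392).

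Against the later generations, the F1 difference was distinct at few probe sets. The contrast set the F1 difference against the mean of the F2 and F3 differences, each taken from its own control group, and called 323 probe sets (1.49%), 97 (0.446%) with a higher and 226 (1.04%) with a lower difference in F1. The count moved widely with single arrays: 15 without control replicate 1, 24 without control replicate 2, 3237 without vinclozolin replicate 1 and 192 without vinclozolin replicate 2. Of the 34 probe sets named here that it called, 3 were called in all 4 of these fits, those of Hspa4, Xpo7 and Scgb1d4. Hspa4, a cytosolic chaperone, rose in F1 from 256 and 283 to 432 and 352 (0.51 ± 0.15, adjusted p = 0.0265), with differences of −0.76 in F2 and −1.25 in F3 (F1 against their mean 1.52 ± 0.19, adjusted p = 0.00239). The F1 call itself was lost without control replicate 1 (adjusted p = 0.165), control replicate 2 (0.074) or vinclozolin replicate 1 (0.118). Xpo7, a nuclear exporter, fell at 1 dim probe set from 68.2 and 64.7 to 2.1 and 2.4 in F1, with −0.93 in F2 and 0.02 in F3 (−1.72 ± 0.21, adjusted p = 0.00189), while its brightest probe set differed by −0.04 in F1. Scgb1d4, a secretoglobin, read 9.3 and 3.6 on control and 13.1 and 14 on vinclozolin arrays of F1, near background, and had differences of 1.15 in F2 and 4.08 in F3 (−2.20 ± 0.24, adjusted p = 0.000483). The difference of the first gene was thus above 0 in F1 and below 0 later, and the last had its larger differences in F2 and F3.

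Star stood apart at its brighter probe set: −0.23 in F1 against 0.49 in F2 and 0.48 in F3 (−0.72 ± 0.11, adjusted p = 0.00782), a call lost without control replicate 1 (adjusted p = 0.0826) or control replicate 2 (adjusted p = 0.068). Dmrt1 fell further in F1, at −1.29 against −0.60 and −0.33 (−0.82 ± 0.18, adjusted p = 0.0343), and that call was lost without control replicate 1 (adjusted p = 0.174), control replicate 2 (adjusted p = 0.171) or vinclozolin replicate 2 (adjusted p = 0.085). Mbp, myelin basic protein, rose in F1 at 1 probe set from 17.3 and 22.8 to 279.5 and 106 (2.40 ± 0.29, adjusted p = 5.09e-05), most on replicate 1, and differed by −0.40 (adjusted p = 0.138) at its brighter one. Eno2 and the methyltransferase Prmt3 rose in F1 by 1.07 and 0.76 and differed by 0.17 and −0.22 in F2 and by −0.24 and −0.31 in F3. Prmt3 lost the call without control replicate 1 (adjusted p = 0.0733).

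The genes with a common direction over their probe sets in F1 mostly had the same sign in the later generations, which share no array with F1. The median over probe sets was above 0 in F2 in 23 of the 24 higher genes and in F3 in 19, against 32.4% and 36.7% of all 3269 genes. Among the 107 lower genes it was below 0 in 105 in F2 and in 97 in F3, against 67.6% and 63.3% of all. Calls were fewer in the later generations, 14.3% of probe sets in F2 and 3.11% in F3. So were the differences in the beta-actin 5′/3′ ratio, which was 0.247 and 0.219 on the F2 vinclozolin arrays and 0.395 and 0.360 on those of F3, against 0.423 to 0.471 on the 6 control arrays, and its part in the shared direction was not tested. Complexes II to V were higher in 12 of 36 genes in F2 and 5 in F3, and cytosolic ribosomal genes in 7 and 11 of 42, where 6.01% (F2) and 1.22% (F3) of all genes were called higher by the brightest probe set. Erythroid genes were higher in 2 of 16 in F2 and in 6 in F3. Chromatin genes were lower in 6 of 55 in F2 and 2 in F3, where 5.09% and 1.51% of all genes were called lower.

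**Figure D5:**
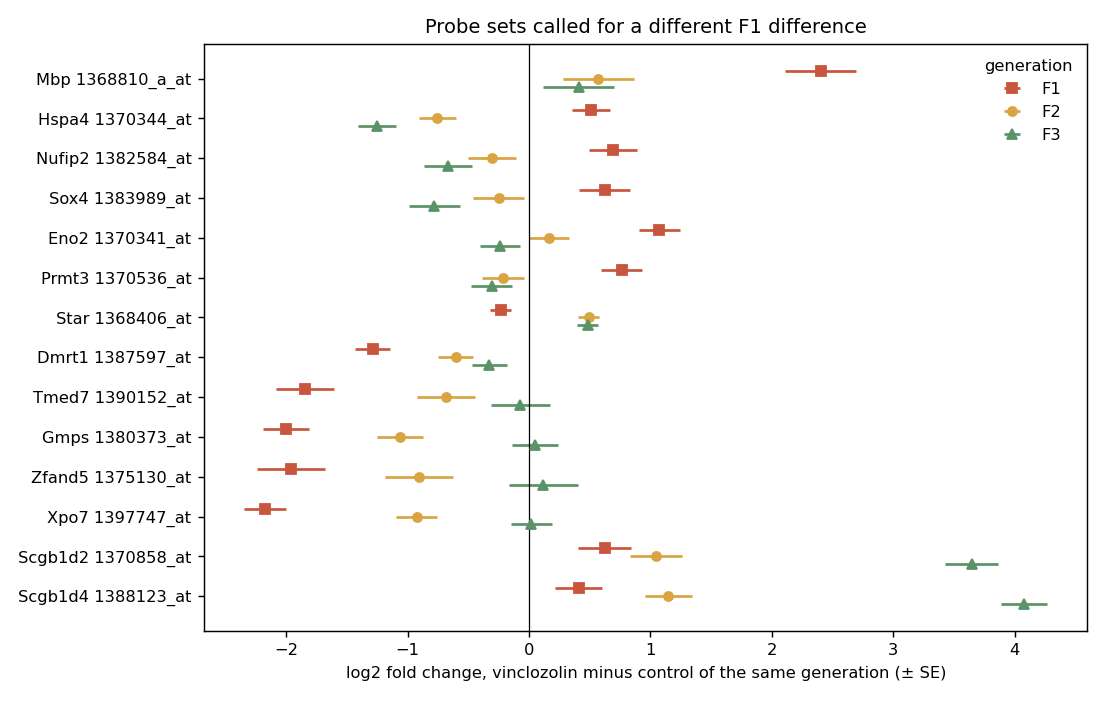
Log2 fold change, vinclozolin minus control of the same generation (horizontal axis, ± SE, 2 arrays a group), for 14 probe sets called for a different F1 difference; squares are F1, circles F2 and triangles F3. Hspa4 is above 0 in F1 and below it later, Star is below 0 in F1 and above it later, and Scgb1d2 and Scgb1d4 are furthest from 0 in F3.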

How the data were processed

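Total RNA of E16 rat testes was measured on 12 one-colour Affymetrix arrays, 2 in each of 6 groups. The deposited values are linear signal intensity for 31099 probe sets, scaled by the authors so that every array has nearly the same trimmed mean; the summarising software is not given in the sources used here. The platform annotation gave 20837 probe sets 1 gene symbol, 425 several and 9780 none, of which 20772 were found in the RefSeq gene table, and only probe sets with 1 symbol were named.

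Values were taken to log2(value + 16). The 57 control probe sets and the dimmest 30% of the others (9313, below a mean of 14.8) were left out. limma 3.58.1 (R 4.3.3) was fitted to all 12 arrays with 6 group means, lmFit and eBayes with a mean-variance trend, which left 6 residual degrees of freedom; a call is a Benjamini-Hochberg adjusted p under 0.05 over all 21729 probe sets. An exact permutation test of 2 arrays against 2 cannot give a p below 0.333 and was not used. The steps were tested on simulated data. Array number limits the precision.

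In gene lists the brightest tested probe set stands for a gene. Named genes are the 12 highest and 12 lowest by the median over their probe sets among genes with every probe set called 1 way and no overlap, the 6 highest and 6 lowest called genes with 1 probe set, the 6 with the widest gap between opposite calls, up to 4 called members of each list by size (else the 2 of smallest p), a set of testis and methylation genes whatever their values, and the 6 highest and 6 lowest calls of the difference between generations. Cbx1, Cdh2, Cldn5, Ddx25, Dnmt1, Hsd17b7, Ier3, Jun, Jund, Nr4a1, Nr5a1, Ocln, Scarb1 and Tet1 were added after their values were seen. Mdh1, Ptp4a2, Elovl6, Kmt2c, Slc4a1 and Gata1 were also named outside these rules. The members and lists were chosen with earlier results of these data known. The groups share replicate numbers, but the deviations of same-numbered arrays from their group means had a correlation of −0.02 between the F1 groups (−0.09 to 0.07 over any 2 groups), so the numbers do not pair the arrays. The alternatives tried were other pseudocounts, filters, scalings, array weights, no trend, the F1 arrays alone, a replicate block and each array left out.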

Additional observations from a re-analysis of the deposited data

Results flagged for a closer look

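At these probe sets the F1 difference between vinclozolin and control was tested against the mean of the F2 and F3 differences, and limma's adjusted p was under 0.05. Values are log2 differences of differences, F1 minus the later mean. Where a gene has several probe sets, each value belongs to 1 of them.

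Those with a higher difference in F1 were Mbp (1.91), Hspa4 (1.52), Nufip2 (1.18), Sox4 (1.14), Eno2 (1.11), Prmt3 (1.02), Tnpo3 (0.81), Mfhas1 (0.77), Golph3l (0.65), Fyttd1 (0.60) and, at its bright probe set, Lrpprc (0.59). Among them are a chaperone, a nuclear import receptor, a glycolytic enzyme and Sox4, a transcription factor of progenitor cells.

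Those with a lower difference in F1 were the secretoglobins Scgb1d4 (−2.20) and Scgb1d2 (−1.72), both of which had their larger difference in F3, and Xpo7 (−1.72), Zfand5 (−1.56), Gmps (−1.50), Tmed7 (−1.47), Scd2 (−1.47), Pus3 (−1.35), Usp8 (−1.32) and Reep6 (−1.27). Golph3 (−1.16), Lrpprc at a dim probe set (−1.15), Ddx17 (−1.11), Peli2 (−1.06), Sp1 (−1.02), Dmrt1 (−0.82), Vcl (−0.79), Lgr4 (−0.74), Star (−0.72) and Pmp22 (−0.67) followed. Tpm3 had 3 such probe sets, at −0.73, −0.63 and −0.62. Of the 34 probe sets, 3 were called in each fit that left out 1 F1 array (Hspa4, Scgb1d4 and Xpo7).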

How the results depend on the processing

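The 5026 calls, 2045 higher and 2981 lower, and the 24 and 107 genes with every probe set higher or lower stayed within 1.5 times of these counts with other pseudocounts, with 50% of probe sets left out as dim, and with quantile or loess normalization, and no named value reversed. With no filter on dim probe sets, 66 genes were lower at every probe set and 102 probe sets were called for the difference between generations (323 otherwise). Median centring gave 3678 calls of a rise (62.6% of all calls, against 40.7%), 61 genes higher and 59 lower at every probe set. The F1 arrays alone, with fewer arrays behind the spread, gave 2294 calls, 608 higher and 1686 lower (26.5% higher), and 2 and 29 genes. Array weights gave 3319 calls, 1235 of them higher, 13 and 62 genes, and 189 for the difference between generations, which had 25 calls with no mean-variance trend; the cause was not tested. Leaving out 1 array at a time gave 2514 to 7183 calls, 816 to 3111 higher and 1698 to 4072 lower, 6 to 60 genes higher and 34 to 275 lower at every probe set, and 15 to 3237 calls between generations. The lowest count of each came without a control array and the highest without vinclozolin replicate 1. With a replicate block, although the numbers do not pair the arrays, there were 5009 calls, 2035 higher and 2974 lower, 22 and 106 genes, and 383 between generations. Of 255 called named probe sets, 145 kept the call in every setting that tested them. With 50% of probe sets left out as dim, 220 of the 255 were tested. Groups of 2 pools, the lower 5′/3′ ratios of the vinclozolin arrays and dim probe sets near background limit what can be read from single probe sets.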
